A study of Mus musculus with 10 samples.

Results

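The genes described here are 10 genes of the crypt stem cell and of the Wnt response in mouse colon, namely *Lgr5*, *Ascl2*, *Axin2*, *Smoc2*, *Sox9*, *Ephb2*, *Ephb3*, *Rnf43*, *Znrf3* and *Cdx2*. They were chosen by gene symbol, and each matched 1 row, so they make up 10 of the 56691 genes in the table. RNA was sequenced from colon tissue of male C57BL/6 mice, bought at 8 weeks of age, that all drank 3% dextran sulfate sodium (DSS), an agent that injures the colon epithelium, for 7 days. The 5 mice of the DSS group had no further treatment that the methods describe. The 5 mice of the ceAF group then received chick early amniotic fluid (ceAF) by gavage at 15 mL/kg for 10 days. Untreated mice were not analysed here, and the sources do not say which stretch of colon was taken or whether the DSS group had a vehicle gavage.

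The colon epithelium is renewed from stem cells at the base of the crypts. Wnt ligands and R-spondins from the surrounding stroma keep these cells dividing by stabilising beta-catenin, which binds TCF factors and switches on target genes. Some targets mark the stem cells, some damp the signal, and some position cells along the crypt, while cells that leave the base divide rapidly for a time before they stop and become absorptive or goblet cells.

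Reads counted on genes numbered 16275884 to 19901549 per mouse in the DSS group and 14676471 to 18811795 in the ceAF group. Values per mouse are CPM, meaning counts scaled to library size, with TMM (trimmed mean of M-values) factors. Neither principal component 1 nor 2 put every mouse of one group above every mouse of the other. On principal component 1, with 30.8% of the variance over all genes tested, ceAF-1 stood at 93.5 and the other 9 mice between −45.5 and 16.0. On principal component 2, with 19.4%, DSS-1 (60.3) and DSS-5 (−45.8) lay at the ends, the other 3 DSS mice lay between 13.4 and 23.6, and the ceAF mice between −28.6 and 7.74, so only DSS-5 kept the groups from lying apart. Mitochondrial genes held 9.66% of counts in ceAF-1, 9.74% in ceAF-5, 7.24% in ceAF-4 and 4.53% to 6.54% in the other 7 mice, and the part of this share in the results was not tested. That each library is a separate mouse rests on the labels, so p-values measure the spread between these samples.
The tissue held epithelium in every mouse. The 13 pan-epithelial markers, such as *Krt8*, a keratin of simple epithelia and the most abundant of them, summed to between 6621.4 FPKM (fragments scaled to exon length and library size) in DSS-5 and 9022 in DSS-4, and 0 of the 13 were at 0 in every mouse.

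Of the 10 genes, 10 had enough counts to be tested, and 0 were called between the groups at an adjusted p-value under 0.05. That is also the share over the table, where 0% of 16545 genes were called by the edgeR quasi-likelihood test after adjustment by Benjamini-Hochberg. By DESeq2's Wald test 28 genes of the table were called and 0 of the 10. At an unadjusted p-value under 0.05 there was 1 gene of the 10, *Axin2*, beside 6.93% of all genes tested (1146), so the count is near the background. Fitted levels were higher in the ceAF group for 7 genes (*Lgr5*, *Ascl2*, *Axin2*, *Ephb2*, *Ephb3*, *Rnf43* and *Znrf3*) and lower for *Smoc2*, *Sox9* and *Cdx2*. The median log2 fold change of the 10 was 0.29 (0.12 to 0.41 over 19 alternatives, 0.19 without DSS-1), and it was 0.01 over all genes tested, of which 51.4% were higher. In 0 of the 10 did the groups lie apart, meaning that every mouse of one group was above every mouse of the other, against 1.24% of all genes tested. In whole colon tissue, fewer cells of a type and less RNA per cell cannot be told apart.

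**Figure D1:**
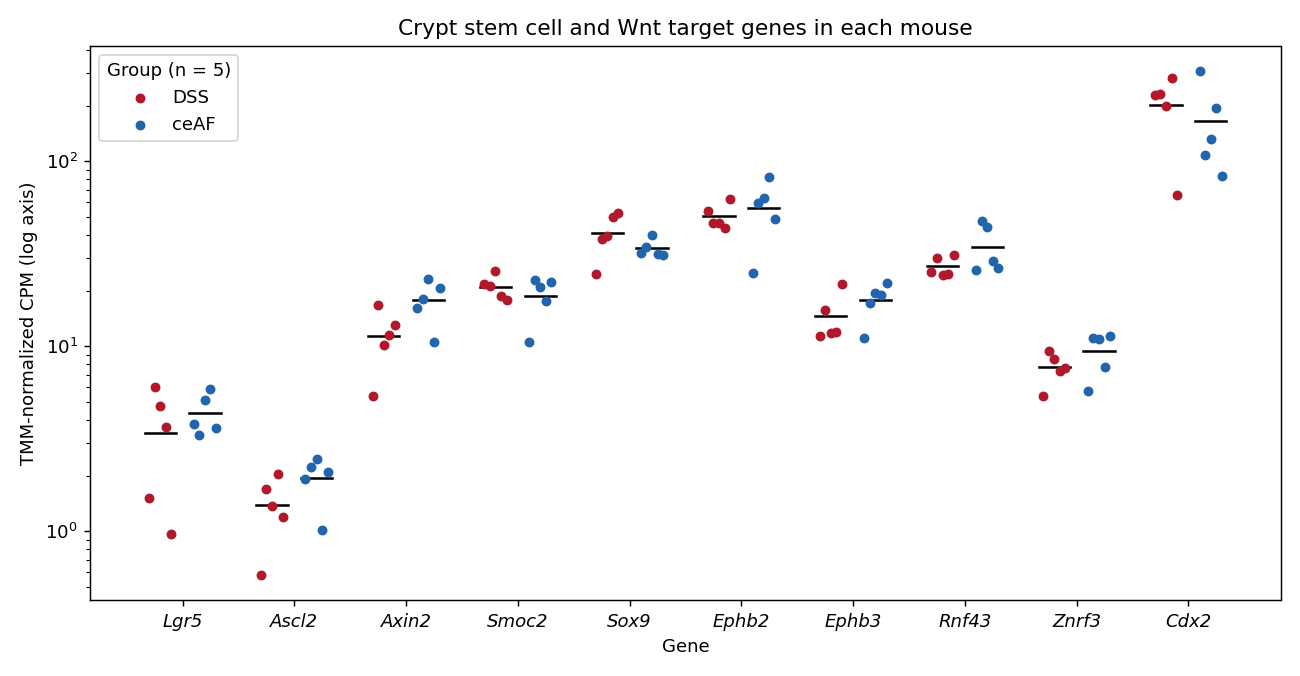
Each point is the TMM-normalized CPM of 1 gene in 1 mouse, on a log axis, with the 5 DSS mice in red and the 5 ceAF mice in blue, and the black line is the group mean. The groups overlap in each of the 10 genes.

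*Lgr5*, a receptor for R-spondins and the marker of crypt base stem cells, had 1.51, 6.05, 4.73, 3.65 and 0.960 CPM in DSS-1 to DSS-5 and 3.82, 3.32, 5.15, 5.85 and 3.63 CPM in ceAF-1 to ceAF-5. The ceAF mice fell inside the range of the DSS mice, whose highest and lowest values bounded all 10, with DSS-1 and DSS-5 below every other mouse. The group means were 3.38 ± 2.14 and 4.35 ± 1.09 CPM (SD, n = 5 mice each). The fitted log2 fold change was 0.36 (standard error 0.439), and its 95% interval ran from −0.60 to 1.33, so the data allow a level from 0.658 to 2.51 times that of the DSS group. Counts of *Lgr5* ranged from 16 to 121, and a count of 16 has an exact Poisson interval of 9.15 to 26.0, which covers counting error only. Leaving out 1 mouse moved it from 0.14 without DSS-5 to 0.70 without DSS-2. With sample quality weights in limma voom the log2 fold change turned to −0.01.

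*Ascl2*, a transcription factor needed for the stem cell state, had 0.580, 1.70, 1.38, 2.05 and 1.20 CPM in the DSS mice, in the order of their numbers, and 1.91, 2.21, 2.47, 1.01 and 2.09 in the ceAF mice. DSS-1 was lowest and ceAF-3 highest, and 4 of the 5 ceAF mice were above the DSS median, but ceAF-4 lay below all DSS mice except DSS-1. The log2 fold change was 0.49 (standard error 0.343, 95% interval −0.27 to 1.24), from 0.30 without DSS-1 to 0.67 without DSS-4, and it was 0.19 without DSS-1, DSS-5 and ceAF-1, an exclusion chosen after the values were seen. The gene was read from 10 to 45 counts per mouse, the fewest of the 10 genes, and a count of 10 has a Poisson interval of 4.80 to 18.4.

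*Smoc2*, a secreted matrix protein found in crypt base cells and also made by stromal cells, ranged from 10.5 CPM in ceAF-1 to 25.6 in DSS-3. Apart from ceAF-1 the mice of both groups lay at 17.6 CPM or more. The log2 fold change was −0.16 (standard error 0.199), with an interval from −0.60 to 0.28, and it was −0.01 without ceAF-1 and −0.23 without ceAF-5. *Sox9*, a transcription factor of crypt base cells that is itself switched on by Wnt, had 24.6, 38.2, 39.3, 49.8 and 52.8 CPM in the DSS mice and 32.0, 34.3, 39.9, 31.7 and 31.3 in the ceAF mice. The DSS mice spanned the ceAF mice at both ends, and only ceAF-3 was above the DSS median. Its log2 fold change was −0.27 (standard error 0.182, interval −0.67 to 0.13), and it ran from −0.41 without DSS-1, the lowest mouse, to −0.15 without DSS-5, the highest (unadjusted p-values 0.0114 and 0.422 by edgeR).

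*Axin2* encodes a scaffold of the complex that destroys beta-catenin, and as a direct Wnt target it is the usual readout of the pathway. It had 5.39, 16.8, 10.2, 11.5 and 13.1 CPM in DSS-1 to DSS-5 and 16.1, 18.0, 23.2, 10.6 and 20.7 CPM in ceAF-1 to ceAF-5. The highest 3 values belonged to ceAF-3, ceAF-5 and ceAF-2 and the lowest to DSS-1, but the groups overlapped, since DSS-2 was above ceAF-1 and ceAF-4 was below DSS-2, DSS-4 and DSS-5. The group means were 11.4 ± 4.17 and 17.7 ± 4.80 CPM (SD, n = 5 mice each). The fitted log2 fold change was 0.64 (standard error 0.287, 95% interval 0.01 to 1.27), and 4 of the 5 ceAF mice were above the DSS median. The edgeR quasi-likelihood test of this log2 fold change of 0.64 gave an unadjusted p-value of 0.0478, and 0.717 after Benjamini-Hochberg adjustment (0.339 to 1.00 over 19 alternatives). In an exact two-sided permutation test over all ways to divide the mice, its p-value was 0.0714, where the smallest that 5 against 5 allow is 0.00794. When each mouse was left out in turn, the unadjusted p-value was under 0.05 in 2 of 10 fits, those without DSS-2 and without ceAF-4, and the log2 fold change ran from 0.46 without DSS-1 to 0.83 without DSS-2.

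*Rnf43* and *Znrf3* encode related membrane ubiquitin ligases that remove Wnt receptors from the cell surface, and R-spondins act by taking them away. *Rnf43* had 25.1, 29.9, 24.4, 24.7 and 31.2 CPM in the DSS mice and 25.8, 47.4, 44.3, 28.8 and 26.6 CPM in the ceAF mice. All 5 ceAF mice were above the DSS median, with ceAF-2 and ceAF-3 far above the rest and ceAF-1, ceAF-4 and ceAF-5 within the DSS range. Its log2 fold change was 0.35 (standard error 0.189, interval −0.06 to 0.77, unadjusted p-value 0.0886 by edgeR), from 0.23 without ceAF-2 to 0.44 without ceAF-1, and the unadjusted p-value was under 0.05 in the fits without ceAF-1 and without ceAF-5. *Znrf3* ranged from 5.39 CPM in DSS-1 to 11.4 in ceAF-5, with a log2 fold change of 0.29 (standard error 0.224), from 0.19 without DSS-1 to 0.42 without ceAF-1. In this gene ceAF-2, ceAF-3 and ceAF-5 were above all DSS mice and ceAF-1 was the second lowest of the 10.

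*Ephb2* and *Ephb3* encode receptors for ephrin-B ligands that hold cells at their place along the crypt axis and are switched on by Wnt. The lowest and the highest *Ephb2* value were both in the ceAF group, 24.9 CPM in ceAF-1 and 82.2 in ceAF-4, and the DSS mice lay between 43.7 and 62.8. The log2 fold change was 0.14 (standard error 0.255, interval −0.42 to 0.70) and went from 0.33 without ceAF-1 to −0.03 without ceAF-4. *Ephb3* had 11.4, 15.8, 11.7, 12.0 and 21.7 CPM in the DSS mice and 11.1, 17.2, 19.5, 18.9 and 22.0 in the ceAF mice. The ceAF mice except ceAF-1 and the mouse DSS-5 stood above the other DSS mice. Its log2 fold change was 0.29 (standard error 0.225, interval −0.21 to 0.79), and it ran from 0.20 without ceAF-5 to 0.50 without DSS-5 (unadjusted p-values 0.419 and 0.0330 by edgeR).

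*Cdx2*, a homeobox transcription factor that sets intestinal identity in the whole epithelium and not in the crypt base alone, had 228, 233, 200.4, 283 and 66.1 CPM in the DSS mice and 308, 108, 133, 194 and 83.3 in the ceAF mice. DSS-5, ceAF-5, ceAF-2 and ceAF-3 were low, the remaining 6 mice were at 194 CPM or more, and the highest and lowest mouse came from different groups. The fitted log2 fold change was −0.29 (standard error 0.408), with an interval from −1.19 to 0.61, the widest of the 10 after that of *Lgr5*. With 1 mouse left out it ran from −0.64 without ceAF-1 to −0.12 without ceAF-5 (unadjusted p-values 0.116 and 0.772 by edgeR).
*Hoxb13*, a posterior homeobox gene that is most abundant of the genes listed for position along the colon, had 76.3, 95.2, 93.0, 112 and 206 CPM in DSS-1 to DSS-5 and 6.18, 215, 149, 10.2 and 185 in ceAF-1 to ceAF-5. The 4 mice with low *Cdx2* were the 4 mice with most *Hoxb13*. *Hoxb6*, named only after its values were seen, had 1.27, 25.3, 36.6, 22.4 and 0.960 CPM in the DSS mice and 91.0, 0.846, 17.4, 2.98 and 0.880 in the ceAF mice. *Hoxd13* and *Hoxd11*, with the smallest p-values of the position genes, had log2 fold changes of 2.91 (standard error 1.23, unadjusted p-value 0.0369 by edgeR) and 1.58 (standard error 0.904). *Hoxd13* was at 121 and 109 CPM in ceAF-2 and ceAF-3 and between 0 and 10.5 CPM in the other 8 mice. The part that the position of the tissue had in the *Cdx2* values was not tested.

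**Figure D2:**
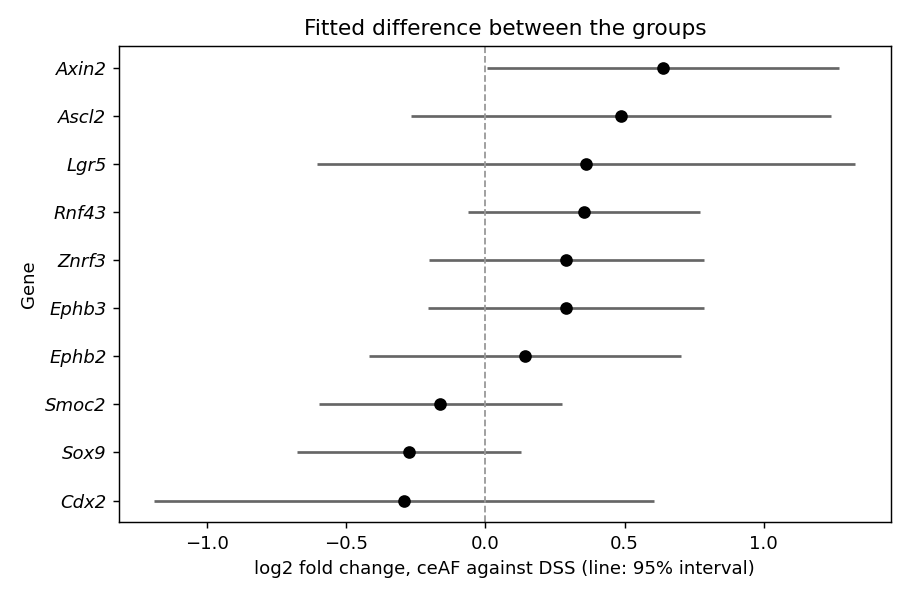
Points give the fitted log2 fold change of ceAF against DSS for each gene and lines its 95% interval, with 0 as a dashed line. The interval of *Axin2*, from 0.01 to 1.27, lies above 0 and the intervals of the other 9 genes include 0.

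The size of difference that these mice allow varied among the genes. The 95% interval stayed within a 2-fold change in either direction for 6 of the 10 and within a 4-fold change for all 10. The SD within groups on the log2 scale had a median of 0.44 over the 10 genes and 0.33 over all genes tested. *Lgr5* (0.82) and *Cdx2* (0.79) varied more than 89.9% and 89.0% of genes tested, while *Rnf43* and *Sox9* (0.32 each) were near the median. Exact permutation p-values of the 10 ran from 0.0714 for *Axin2* to 0.865 for *Ephb2*. Relative to the mean of the pan-epithelial markers in the same mouse, 7 genes were again higher and 3 lower. This step takes the same amount from the group difference of every gene. That amount is below the smallest of the differences, so no direction could change. The smallest exact permutation p-value of these relative levels was 0.0794, again for *Axin2*.
With DSS-1, DSS-5 and ceAF-1 all left out, a comparison chosen after the values were seen, unadjusted p-values under 0.05 by edgeR were found for 4 of the 10 genes, beside 15.3% of all genes. These were *Ephb3* (0.56), *Ephb2* (0.48), *Sox9* (−0.31) and *Cdx2* (−0.88), each with its log2 fold change, and 0 of the 10 were called after adjustment. With limma voom on all 10 mice there were 3 genes of the 10 at an unadjusted p-value under 0.05, namely *Rnf43*, *Cdx2* and *Ephb3*, beside 14.8% of all genes.

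Levels of different genes can be compared only per length, so the order is given in FPKM averaged over the 10 mice. *Cdx2* was by far highest at 80.2 ± 34.1 FPKM (SD, n = 10 mice), above 96.4% of the genes tested. *Sox9* followed at 9.01 ± 2.03, *Rnf43* at 4.69 ± 1.22, *Ephb2* at 4.26 ± 1.31, *Smoc2* at 2.88 ± 0.661, *Axin2* at 2.63 ± 0.972 and *Ephb3* at 2.44 ± 0.717 FPKM. The lowest were *Znrf3* at 1.08 ± 0.291, *Ascl2* at 1.01 ± 0.353 and *Lgr5* at 0.375 ± 0.168, so the gene that defines the stem cell was the lowest of the 10 in whole tissue. The order was the same in both groups except for *Smoc2*, *Axin2* and *Ephb3*, whose means were 3.05, 2.08 and 2.204 FPKM in the DSS and 2.70, 3.18 and 2.68 in the ceAF group. In exact sign-flip tests between neighbours in this order, 5 of 9 steps held in all 10 mice, each with a p-value of 0.00195, the smallest that 10 mice allow, and an adjusted p-value of 0.00352. Neighbours that did not differ beyond their spread were *Rnf43* and *Ephb2* (adjusted p = 0.387), *Smoc2* and *Axin2* (0.545), *Axin2* and *Ephb3* (0.613), and *Znrf3* and *Ascl2* (0.497), all by the exact test.

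Some of the 10 genes varied together from mouse to mouse and others did not. Over the 45 pairs, Pearson's r of log2 CPM across the 10 mice was positive in 30 and negative in 15, with a median of 0.22. The closest pair was *Ascl2* and *Axin2*, with r = 0.90 (permutation p = 0.00108, adjusted over 45 pairs 0.0486) and Spearman's rho = 0.85 (permutation p = 0.00299, adjusted 0.0673). It was the 1 pair of 45 under 0.05 after adjustment of Pearson's r, and 0 pairs were after adjustment of rho. Without DSS-1 and ceAF-4, the 2 mice farthest from the median of *Ascl2*, r was 0.69. DSS-1 was the lowest mouse and ceAF-3 the highest in both genes.
*Znrf3* was next to this pair, with r = 0.75 against *Axin2* (permutation p = 0.0110, adjusted 0.165), rho = 0.73 (permutation p = 0.0206, adjusted 0.264) and r = 0.49 without DSS-1 and ceAF-3. *Cdx2* went the other way from most of the others, with a negative r in 8 of its 9 pairs, and *Lgr5* was the exception. The strongest of these was with *Ephb3*, r = −0.84 (permutation p = 0.00348, adjusted 0.0783), rho = −0.85 (permutation p = 0.00281, adjusted 0.0673), and −0.80 without DSS-1 and ceAF-1. *Lgr5* had an r of 0.05 with *Smoc2* and of 0.48 with *Ascl2*. The latter came with rho = 0.10, and this r was −0.57 without DSS-1 and DSS-5.

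**Figure D3:**
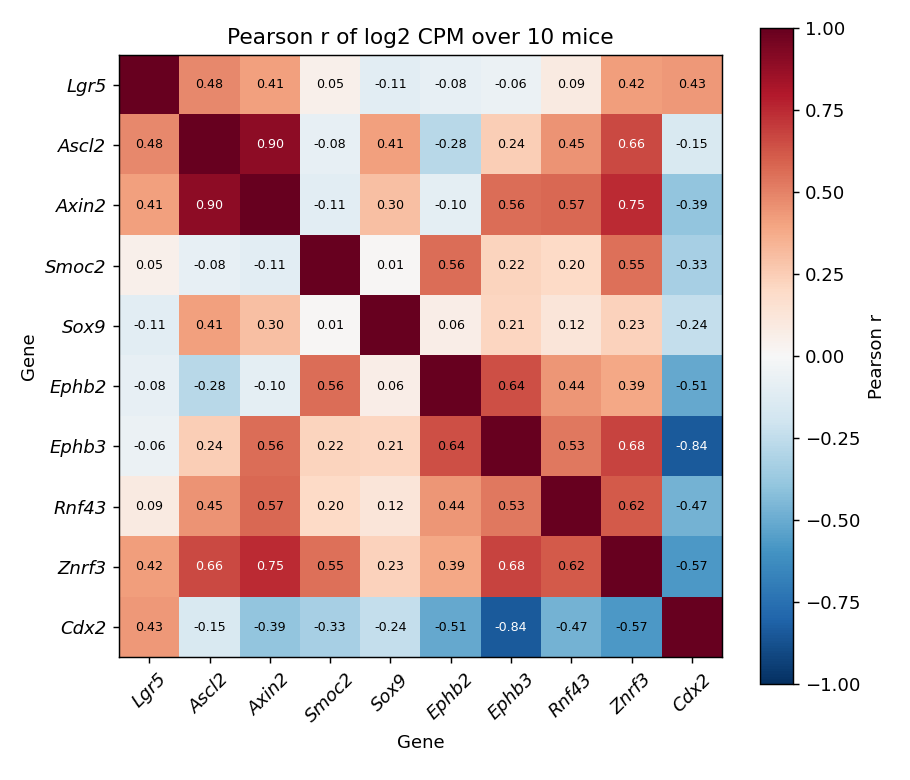
Each square gives Pearson's r between the log2 CPM of 2 genes over the 10 mice, from −1 in blue to 1 in red. *Ascl2* with *Axin2* (0.90) is the reddest square off the diagonal, and the row of *Cdx2* is blue except for *Lgr5*.

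Against the score of the 13 pan-epithelial markers, which is the mean of their log2 CPM relative to each marker's mean over mice, 0 of the 10 genes had an adjusted p-value under 0.05. The largest r was 0.67 for *Lgr5* (permutation p = 0.0410, adjusted over 10 genes 0.207, rho = 0.45 with permutation p = 0.192), and without DSS-4 and DSS-5 it was 0.32. For *Cdx2* r was 0.64 (permutation p = 0.0414, adjusted 0.207, rho = 0.32 with permutation p = 0.368) and 0.09 without the same mice. Leaving these mice out raised r for *Rnf43* from 0.16 to 0.76 and for *Sox9* from −0.09 to 0.52, values that carry no test. Scores of 3 further marker lists, for surface colonocytes, proliferation and fibroblasts, were compared after the values had been seen. This made 40 relations in all, of which 3 had an adjusted p-value under 0.05 for r and 2 for rho. For the fibroblast score these were 0 and 0. Its largest r was 0.76, for *Ephb2* (permutation p = 0.0281, adjusted over 40 relations 0.185), with rho = 0.76 (permutation p = 0.0152, adjusted 0.151). This r was 0.80 without DSS-1 and ceAF-1 and 0.34 without ceAF-1 alone.
*Cdx2* followed the mean score of the 13 markers of differentiated surface colonocytes, the absorptive cells at the top of the crypt. Here r was 0.85 (permutation p = 0.00198, adjusted over 40 relations 0.0264), rho 0.83 (permutation p = 0.00468, adjusted 0.0624) and r 0.69 without DSS-4 and DSS-5. Single markers did not all run this way. *Car1* was lowest in DSS-5 (115 CPM) and highest in ceAF-1 (11922), as was *Cdx2*. By contrast, *Slc26a3* and *Aqp8* were lowest in ceAF-1 (576 and 277 CPM) and highest in ceAF-2 (2164 and 1163). The relation of *Cdx2* with each marker was not tested. Against the 14 proliferation markers, *Znrf3* and *Ephb3* had an adjusted p-value under 0.05. For *Znrf3* r was 0.84 (permutation p = 0.00092, adjusted 0.0226), rho was 0.88 (permutation p = 0.0017, adjusted 0.0452), and r was 0.81 without ceAF-1 and ceAF-5. For *Ephb3* r was 0.80 (permutation p = 0.00113, adjusted 0.0226), rho was 0.87 (permutation p = 0.00226, adjusted 0.0452), and r was 0.78 without the same mice. *Axin2* had r = 0.42 (permutation p = 0.216, adjusted 0.537) and rho = 0.72 (permutation p = 0.0234, adjusted 0.151), and *Rnf43* r = 0.41 (permutation p = 0.243, adjusted 0.539) and rho = 0.65 (permutation p = 0.0483, adjusted 0.215). Without ceAF-1 and ceAF-5 r was 0.86 for *Axin2* and 0.80 for *Rnf43*, and without ceAF-1 alone it was 0.82 and 0.38. Leaving out both mice lowered r for *Smoc2* from 0.65 to −0.27 and for *Ephb2* from 0.68 to 0.56. For *Ephb2* r was 0.21 without ceAF-1 alone. The values with mice left out carry no test.
In summed FPKM the surface colonocyte markers reached 6655.3, 9587.7, 12290.1, 11043 and 5270.6 in the DSS mice and 15328.7, 5924.7, 7691.6, 5793.9 and 5037.9 in the ceAF mice, with 0 of the 13 at 0 in every mouse. *Car1*, a carbonic anhydrase, was the most abundant. The proliferation markers reached 88.5, 105.9, 97.6, 96.9 and 107.4 FPKM in the DSS mice and 57.4, 113.2, 121.4, 118.1 and 164.3 in the ceAF mice, with *Pcna*, the sliding clamp of DNA replication, the most abundant and 0 of the 14 at 0 in every mouse. The part of either cell population in the values of the 10 genes was not tested.

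**Figure D4:**
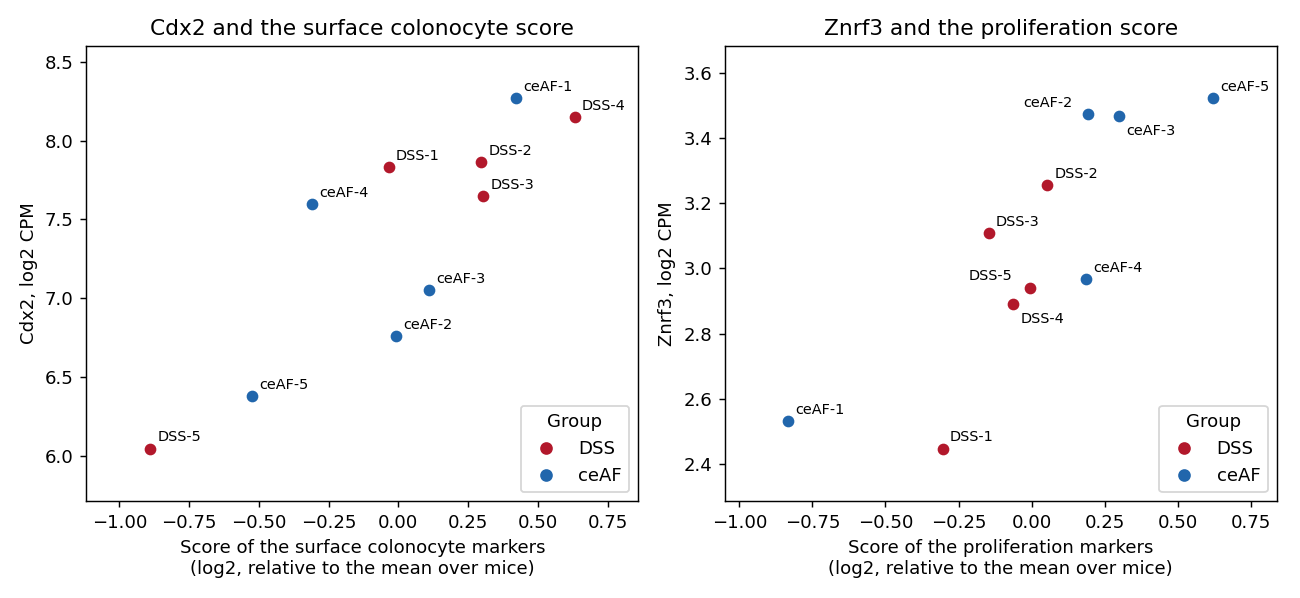
The left panel plots log2 CPM of *Cdx2* against the score of the surface colonocyte markers and the right panel log2 CPM of *Znrf3* against the score of the proliferation markers, each point being 1 mouse, red for DSS and blue for ceAF. Both rise across the mice (r = 0.85 and 0.84), with DSS-5 at the lower left in the first panel and ceAF-1 and DSS-1 in the second.

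The tested genes outside the 10 whose log2 CPM was most like that of *Lgr5* over the 10 mice were *4930422I22Rik* (r = 0.911), *Ccdc187* (0.909), *B3galt2* (0.905), *Gjb2* (0.899) and *Vsig2* (0.875), given as a measure of likeness without a test. Without DSS-1 and DSS-5, the mice with least *Lgr5*, these values were 0.670, 0.438, 0.504, 0.607 and 0.381, so much of the likeness lies in those mice.

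Other genes of the pathway showed no common direction, and counts of genes called are those of edgeR, with 0 in these lists by DESeq2 also. Of 25 further Wnt targets and crypt base genes 22 were tested, 10 higher and 12 lower in ceAF mice (median log2 fold change −0.07, from −0.11 to 0.05 over 19 alternatives), and 0 were called. The smallest p-values were those of *Lef1*, a TCF family factor that T cells also express, at −1.52 (standard error 0.488, unadjusted p-value 0.00989), and *Cdk6*, a cell cycle kinase, at 0.34 (standard error 0.182, unadjusted p-value 0.0911). *Lef1* was at 9.45 CPM in DSS-1 and between 1.80 and 3.20 CPM in DSS-2 to DSS-5. Its log2 fold change shrank to −0.93 when DSS-1 was left out. With 1 mouse left out *Cdk6* ran from 0.21 without DSS-5 to 0.47 without DSS-2. Among 32 receptors and transducers 31 were tested, 18 higher and 13 lower with a median of 0.02 (−0.01 to 0.06), and 0 were called. *Dvl3* and *Dvl1*, which pass the signal from the receptor to the destruction complex, had log2 fold changes of 0.25 (standard error 0.0845) and 0.25 (standard error 0.111), and with 1 mouse left out they ran from 0.22 to 0.28 and from 0.20 to 0.30. *Dvl3* had 53.8, 56.2, 48.9, 57.7 and 52.3 CPM in the DSS mice and 59.4, 67.0, 62.7, 60.6 and 70.4 in the ceAF mice, so the groups did not overlap in it, as in 1.24% of all genes.
Of 17 Wnt and R-spondin ligand genes only 6 had enough counts, 2 higher and 4 lower with a median of −0.26 (−0.36 to −0.12), and 0 were called. *Rspo3*, an R-spondin made by stromal cells, was at 3.73 ± 2.84 CPM in the DSS and 1.53 ± 0.764 in the ceAF group (log2 fold change −1.28, standard error 0.564), and its highest values, 6.49 and 6.96 CPM, were in DSS-1 and DSS-5. The log2 fold change of *Rspo3* was −0.91 without DSS-5 and −1.59 without ceAF-2. *Wnt2b* had a log2 fold change of 0.44 (standard error 0.278), from 0.31 without ceAF-2 to 0.62 without DSS-5. Of 10 secreted Wnt inhibitors 6 were tested, 2 higher and 4 lower with a median of −0.51 (−0.67 to 0.13), and 0 called. *Sfrp1* was at 16.4 ± 8.24 CPM in the DSS and 9.06 ± 2.53 in the ceAF group (log2 fold change −0.86, standard error 0.325) and *Dkk2* had a log2 fold change of −1.45 (standard error 0.795), with DSS-1 highest in both. Without DSS-1 these were −0.54 and −0.32, and the other ends were −1.02 without DSS-4 and −2.11 without ceAF-4. *Elf3* (−0.33, standard error 0.153) and *Foxa3* (−0.36, standard error 0.167) had the smallest p-values of 17 intestinal transcription factor genes, of which 7 were higher, 10 lower and 0 called (median −0.11, from −0.16 to 0.01). With 1 mouse left out *Elf3* ran from −0.38 to −0.19 and *Foxa3* from −0.43 to −0.25.

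For markers of the other cells of the tissue, edgeR on all 10 mice called 0 genes in each list, DESeq2 called 4 T cell markers and 0 in the other lists, and for most lists the direction depended on the mice and the fit. Each median log2 fold change below, of ceAF against DSS by edgeR, is followed by its range over 19 alternatives, 1 of which (DSS-1, DSS-5 and ceAF-1 left out) was chosen after the values were seen. All 14 proliferation genes were higher in ceAF mice, with a median of 0.20 (0.11 to 0.43), but 11 were with limma-trend on FPKM and 10 without ceAF-5. Unadjusted p-values under 0.05 were found for 0 of the 14 by edgeR and 0 by DESeq2, and for 9 by edgeR without ceAF-1. In that last fit 1872 of all 16784 genes tested were under 0.05 as well, against 1146 of 16545 with all 10 mice. The leading proliferation genes were *Aurkb* (0.47, standard error 0.231) and *Mki67* (0.44, standard error 0.252). The 13 pan-epithelial markers, with *Vil1* (0.20) and *Krt19* (0.17) leading, had a median of −0.01 (−0.04 to 0.06), and the 13 surface colonocyte markers, with *Saa1* (−0.58) and *Car4* (−0.53), of −0.06 (−0.14 to 0.13).
Of the 8 goblet cell markers 7 were lower in ceAF mice, with a median of −0.53 (−0.63 to −0.23), led by *Tff3* (−0.67) and *Spink4* (−0.60), with *Zg16* the most abundant. Of 13 tested injury regeneration genes 8 were lower, with a median of −0.21 (−0.31 to 0.21), but 9 were higher with limma voom and 7 without ceAF-1. *Il33* (−1.27, standard error 0.562) and *Ereg* (−0.47) had the smallest p-values of these and *Ly6a* was the most abundant, and *Il33* was at 16.9 CPM in DSS-1 and at most 7.06 in the other 9 mice.

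The 10 T cell markers were all lower in ceAF mice with a median of −1.24 (−1.52 to −1.07), and unadjusted p-values were under 0.05 for 10 of 10. By DESeq2 4 were called, and by edgeR 1 was without DSS-5 and 1 without DSS-1, DSS-5 and ceAF-1. All were lower under each alternative, with 8 to 10 of them at an unadjusted p-value under 0.05, led by *Cd3g* (−1.47) and *Lck* (−1.32), with *Trbc2* the most abundant. In summed FPKM they reached 89.6, 87.1, 89.1, 90.3 and 35.1 in the DSS mice and 29.6, 46.2, 35.6, 19.0 and 26.2 in the ceAF mice, so DSS-5 lay within the ceAF range. The tested neutrophil markers, 6 of 8, were all lower too, with a median of −3.96 (−4.32 to −1.15), led by *S100a9* (−5.15) and *Retnlg* (−5.72). Their unadjusted p-values were under 0.05 for 5 by edgeR, 2 by DESeq2, 0 by limma voom and 0 with the replicate block, and without DSS-1 for 1 by edgeR, where the median was −1.52. In summed FPKM the 8 reached 2748.9, 133.9, 413.4, 206.2 and 619.6 in the DSS mice and 19.7, 261.7, 186.9, 158.2 and 245.4 in the ceAF mice, with *Ly6g* the most abundant and 0 at 0 in every mouse. *Ly6g* had a log2 fold change of −0.67 (standard error 0.578). Its mean in the ceAF group was 143 CPM, where *S100a9* and *Retnlg* had 4.53 and 1.06 CPM, so the sums there hold far more *Ly6g* than either of them. By the score, the mean of relative log2 CPM, ceAF-2 (−0.98) and ceAF-5 (−1.22) lay below DSS-2 (−0.82), though their sums were higher. DSS-1, the mouse with least *Axin2* and *Ascl2*, had the highest sum, and ceAF-1, with the lowest, was not extreme in either gene.
The 7 B cell markers, with *Cd79b* (−0.85) and *Fcer2a* (−1.02) leading and *Cd79a* most abundant, were all lower in ceAF mice with a median of −0.69 (−1.20 to 0.96), and all higher without DSS-1, where the median was 0.61. The 8 macrophage markers, with *Adgre1* (−0.58) and *C1qa* (−0.62) leading and *Cd14* most abundant, were all lower, with a median of −0.54 (−0.66 to −0.26). The 10 fibroblast markers, with *Pdpn* (−1.11) and *Lum* (−0.91) leading and *Col3a1* most abundant, were all lower, with a median of −0.29 (−0.42 to 0.22), but 5 were without DSS-1. The 8 smooth muscle markers, with *Actg2* (−0.32), the most abundant, and *Acta2* (−0.26) leading, were all lower, with a median of −0.17 (−0.36 to 0.25), but 3 were with limma voom.
The 7 endothelial markers, with *Plvap* (−0.51), the most abundant, and *Pecam1* (−0.46) leading, were all lower, with a median of −0.38 (−0.59 to 0.05). Of the 8 glia and neuron markers 6 were lower, with a median of −0.22 (−0.49 to 0.09), and 4 were without DSS-1. The 14 tested genes of colon position had a median of 0.18 (−0.24 to 0.40). The part of any of these cells in the values of the 10 genes was not tested.

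By position, 4 of the 10 genes lie on chromosome 11. The positions in the table come without a named build. *Znrf3* (ENSMUSG00000041961) spans 5226324 to 5394847 on the reverse strand, and *Rnf43* (ENSMUSG00000034177, 87553548 to 87626365), *Axin2* (ENSMUSG00000000142, 108811175 to 108841609) and *Sox9* (ENSMUSG00000000567, 112673050 to 112678586) follow on the forward strand. *Lgr5* (ENSMUSG00000020140) is on the reverse strand of chromosome 10 from 115286216 to 115423685, *Ascl2* (ENSMUSG00000009248) on that of chromosome 7 from 142520566 to 142523001 and *Cdx2* (ENSMUSG00000029646) on that of chromosome 5 from 147237615 to 147244080. *Ephb2* (ENSMUSG00000028664) is on the reverse strand of chromosome 4 from 136374850 to 136563299, *Ephb3* (ENSMUSG00000005958) on the forward strand of chromosome 16 from 21023505 to 21042055, and *Smoc2* (ENSMUSG00000023886) on the forward strand of chromosome 17 from 14499768 to 14625052.
Reads are not stated to be counted by strand, but the genes listed as overlapping *Lgr5*, *Axin2*, *Smoc2* and *Rnf43* had at most 6 counts in any mouse.

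Promoter sequence was at hand in RefSeq (GRCm38.p6) for 6 of the 10 genes, *Ephb2*, *Cdx2*, *Ascl2*, *Axin2*, *Ephb3* and *Rnf43*, the last with 2 starts. The 250 bases before each start were searched on both strands for the TCF motif letters CTTTGAA, then CTTTGAT, then CTTTGTA, and last CTTTGTT. Of the 7 windows 0 held a match, and 14.8% of the 32851 windows of all genes did, which says only that these letters are not in these windows. Windows are shown for the pair of genes with the highest Pearson's r, 5′ to 3′ and in lower case throughout since no motif was found. They are those of *Ascl2* on the reverse strand (chr7:142969265-142969514, GRCm38) and *Axin2* on the forward strand (chr11:108920099-108920348, GRCm38).
Ascl2: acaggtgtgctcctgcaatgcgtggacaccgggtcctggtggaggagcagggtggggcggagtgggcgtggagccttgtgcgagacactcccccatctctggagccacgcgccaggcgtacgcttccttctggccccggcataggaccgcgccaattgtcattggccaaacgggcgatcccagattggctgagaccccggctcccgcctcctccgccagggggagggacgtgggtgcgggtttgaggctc
Axin2: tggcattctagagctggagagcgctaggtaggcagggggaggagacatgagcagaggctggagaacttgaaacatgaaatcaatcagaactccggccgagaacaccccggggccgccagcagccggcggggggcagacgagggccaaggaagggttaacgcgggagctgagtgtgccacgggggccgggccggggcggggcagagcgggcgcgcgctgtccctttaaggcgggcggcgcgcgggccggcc
G and C made up 67.6% of the first window and 69.2% of the second, and from 44.4% in 1 window of *Rnf43* to 68.4% in *Ephb2* in the others.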

How the data were processed

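Poly(A) RNA of colon from 10 mice was sequenced by a company, 5 in the DSS and 5 in the ceAF group according to the sample labels. The authors deposited 1 table with the raw count of reads on each gene and the FPKM beside it, where FPKM equals the count scaled for exonic length and for the library's total. The submitters' processing notes name cutadapt 1.9.1 and HISAT2 2.2.1. The counting program and genome build are not given in the sources used here, and 2639 of the 56691 genes have no symbol. Gene positions equal those of GENCODE M21 (GRCm38) for 2.76% of 52073 shared genes.

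From the counts, filterByExpr (minimum count 10) kept 16545 genes, which were scaled by TMM and compared with the two-sided quasi-likelihood test of edgeR 4.0.16 in R 4.3.3, with Benjamini-Hochberg adjustment over all of them and calls at 0.05. Log2 CPM used a prior count of 1. Exact permutation tests ran over 252 assignments, sign-flip tests on log2(FPKM + 1), and correlations used 100000 permutations in Python 3.11.15. The edgeR, DESeq2 and voom tests were first run on simulated counts with known changes and the same dispersion for every gene. Replicate libraries differed by more than counting noise in all 20 pairs within groups, with a chi-square of at least 13.2 per gene.

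Alternatives were upper quartile scaling, DESeq2 1.42.0, limma 3.58.1 (voom with quality weights, and trend on FPKM with pseudocounts of 1 and 0.1), other filters, the replicate number as a block, levels relative to epithelial markers, and leaving out each mouse. Other genes named were, from most of 19 lists, the 2 with the smallest p-value, for marker lists also the most abundant, and 5 genes most like *Lgr5*. The 10 genes and the lists were chosen with earlier results of these data known. Control mice and mice given mesalazine were not analysed here, and figures were drawn with matplotlib 3.10.9.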

Additional observations from a re-analysis of the deposited data

Results flagged for a closer look

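For the 10 genes, the total count and the mitochondrial share, Dixon's ratio was taken in each group, which is the distance of the end value from the next value as a share of the range. Of 24 such comparisons 3 exceeded 0.71, Dixon's critical value with 5 samples, and about 1 in 20, or 1.2, would do so by chance. *Cdx2* was far lower in DSS-5 than in the other DSS mice (ratio 0.762, 6.05 against at least 7.65 log2 CPM). DSS-2 had a higher total count than the other DSS mice (0.908, 19901549 counts), and DSS-4 a higher share of mitochondrial counts (0.736, 6.54%), which is less than in ceAF-1, ceAF-4 and ceAF-5.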

How the results depend on the processing

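Under 19 other settings, 0 of the 10 genes were called by adjusted p-value in each, and *Axin2*, *Sox9*, *Smoc2*, *Rnf43*, *Znrf3*, *Ephb3*, *Ascl2* and *Cdx2* kept their direction in each setting that tested them. *Lgr5* turned to −0.0057 with limma voom and to −0.10 without DSS-1, DSS-5 and ceAF-1 (chosen after seeing the data), and *Ephb2*, which was 0.329 without ceAF-1, to −0.0287 without ceAF-4, the cause of which was not tested. The number of the 10 genes with an unadjusted p-value under 0.05 was 1, against 3 with voom, 0 with limma-trend on log2(FPKM + 0.1), 4 without those 3 mice, and 0 to 1 with each mouse left out, being 0 without DSS-3, DSS-4, ceAF-2 or ceAF-3. Over the table edgeR called 0 genes, DESeq2 28, and edgeR 1 without those 3 mice and 0 to 3 with each mouse left out, the 3 being without DSS-5. The adjusted p-value of *Axin2* ran from 0.339 to 1.00 over its 19 alternatives. With a minimum count of 50, *Ascl2* was not tested.

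Deviations from the group mean correlated at −0.25, −0.14, −0.00, −0.16 and 0.29 between mice of the same number. So few values cannot show whether the numbers pair mice, and the main fit did not pair them. With the number as a block, 0 genes were called, 694 had an unadjusted p-value under 0.05, and 1 of the 10 did, *Axin2* with a log2 fold change of 0.68. DSS-5 and ceAF-5 each correlated best with the other, and no other mouse did so with its own number. Depth limits *Ascl2* and *Lgr5* most, with 10 and 16 counts in their lowest mice.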
